A study of Rattus norvegicus with 12 samples.

Results

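The genes described here make cholesterol, make fatty acids or control both through the sterol regulatory element binding proteins (SREBPs). They were chosen by name: 31 names, 2 of them older names, stand for 29 genes, and the array carried probes under those names for 28 of them, out of 19382 genes that could be read. All 28 were well above background on all 12 arrays, so the filter on dim probes removed none. The gene left out, Acat2, had no probe under its own name.

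The arrays measured RNA from pituitaries of fetal Wistar rats on gestational day 18, in 4 groups of 3 samples: controls of each sex, labelled male control and female control, and samples of each sex labelled TCDD-exposed, called male TCDD and female TCDD here. The agent, 2,3,7,8-tetrachlorodibenzo-p-dioxin, activates the aryl hydrocarbon receptor, and the series title places the exposure in the mother. The labels name no genetic change in any group. They give no dose, no day of dosing and no vehicle, and they do not say which fetuses shared a litter or whether an array holds a pool, so p-values measure the spread between these samples, which may in part be technical. Each array was a one-colour array, and a level below is the log2 of a spot's processed intensity relative to the 75th percentile of its array; a difference of 1 is a doubling. Levels are set side by side only for the same probe on different arrays.

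Cholesterol is built from acetyl-CoA by way of mevalonate, squalene and lanosterol. The SREBP proteins encoded by Srebf1 and Srebf2 are held in the endoplasmic reticulum by Scap and the Insig proteins while sterols are plentiful; when sterols fall, Scap carries them to the Golgi, proteases release the active fragment, and it switches on sterol and fatty acid synthesis genes together. Developing nerve tissue is known for high cholesterol synthesis, since growing axons and myelin need membrane, and pituitary cells use cholesterol for membranes and secretory granules.

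The exposure was read first from the genes of its own receptor. Cyp1a1, a cytochrome P450 that this receptor induces, was well above background on 0 of the 6 control arrays and on 6 of the 6 exposed arrays, at -2.58 to -1.19. Ahrr, the repressor of the same receptor, lay between -6.27 and -4.98 on the control arrays and between -0.23 and 0.67 on the exposed arrays. Both separated the groups on every array. The arrays also divided in a way that the labels do not give. Avil, which encodes advillin, an actin-binding protein of sensory neurons, read -3.49, 0.33 and -3.69 in male controls, 1.62, 1.02 and -3.33 in exposed males, -3.55, 0.83 and -3.67 in female controls, and 0.80, -3.40 and 0.17 in exposed females. Its level was above 0 on 6 arrays (male control 2, male TCDD 1, male TCDD 2, female control 2, female TCDD 1 and female TCDD 3) and at or below -3.33 on the other 6. The 6 arrays of higher Avil hold 2 controls and 4 exposed samples, 3 of each sex, and 2 of them lie on each of the 3 slides. This division was read from the arrays and is no group of the study, so levels across it are described without a test.

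No member passed the test for exposure. In limma with a mean for each of the 4 groups and Benjamini-Hochberg adjustment over all genes, 0 of 28 members had an adjusted p below 0.05 over both sexes (the mean of the male and the female difference), where 0.0206% of all genes did. At an unadjusted p below 0.05 the count was again 0 of 28, against 6.45% of all genes, and adjusted p-values of the members ran from 0.670 to 0.874. The differences nevertheless leaned one way: 24 of 28 members read higher in exposed samples, against 44.6% of all genes, with a median log2 difference of 0.25 against -0.02 for all genes. In males 25 of 28 read higher (48.9% of all genes) with a median of 0.39, and in females 22 of 28 (41.1% of all genes) with a median of 0.09. Counts called were 0 of 28 in males and 0 of 28 in females, where 0.0103% of all genes passed in each, and at an unadjusted p below 0.05 they were 0 of 28 in males (9.42% of all genes) and 1 of 28 in females (2.64% of all genes). By this test none of the differences stood clear of the spread between arrays of a group. With array quality weights, which let the model trust some arrays more, 15 of 28 members passed in males (14 higher, 1 lower), against 28.2% of all genes, and male TCDD 2 had a weight of 9.44. Without male TCDD 1 the median in males was 0.15, and without male TCDD 3 it was 0.65, with 0 members called either way. In bulk RNA fewer cells of a type and less RNA per cell cannot be told apart.

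**Figure D1:**
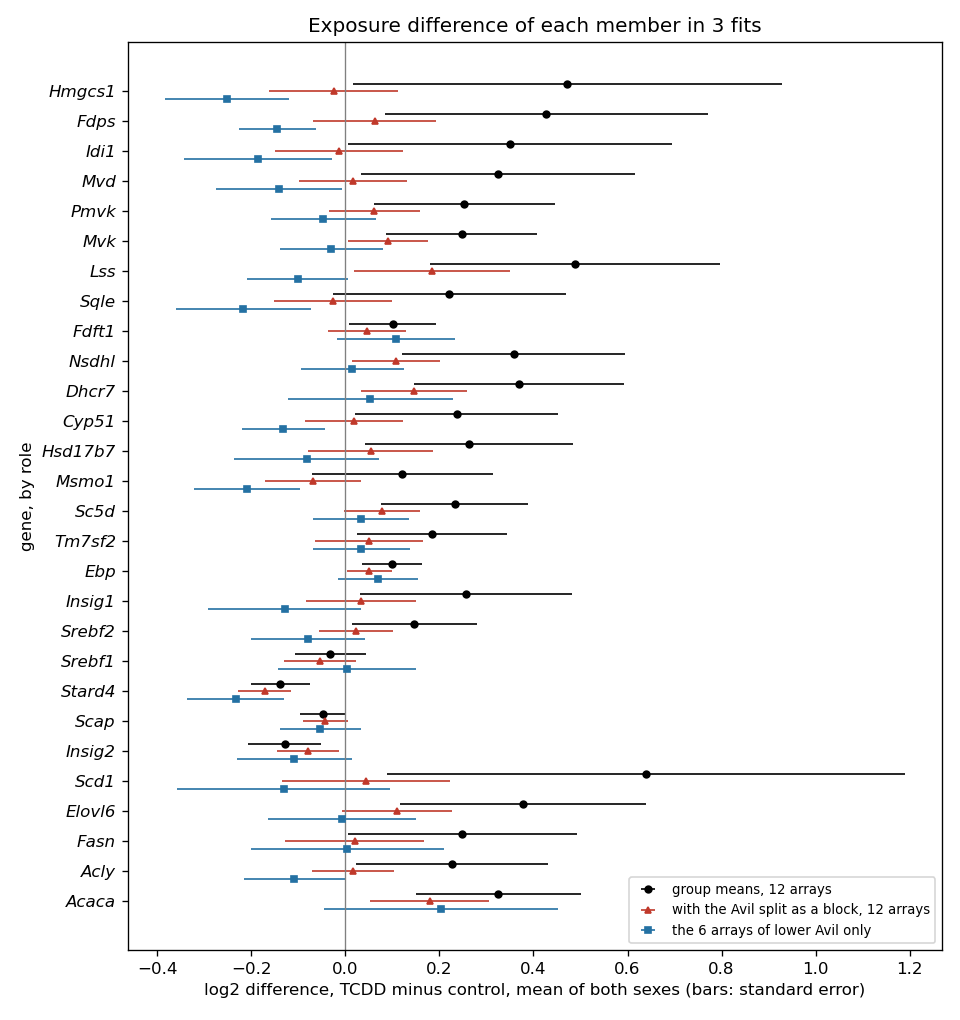
Log2 difference of each member, TCDD minus control, averaged over the sexes, with its standard error, in 3 fits: group means on 12 arrays (black), the same with the Avil division as a block (red), and the 6 arrays of lower Avil only (blue). The black points lie above 0 for 24 of 28 genes (44.6% of all genes), the red for 20 of 28 (55.3%) and the blue for 9 of 28 (55.4%).

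The median over both sexes was lower once Avil entered the fit. With the Avil division as a block, the median difference of the members was 0.04 over both sexes, 0.20 in males and -0.12 in females. With the level of Avil as a covariate it was -0.02, 0.09 and -0.11. On the 6 arrays of lower Avil alone (4 controls, 2 exposed) it was -0.08, and 9 of 28 members read higher in exposed samples. On the 6 arrays of higher Avil alone (2 controls, 4 exposed) it was 0.16, with 23 of 28 higher. There the sexes went opposite ways, at 0.40 in males (25 of 28 higher) and -0.11 in females (4 of 28 higher). The only controls among these 6 arrays were male control 2 and female control 2. None of these fits called a member. The arrays lay on 3 slides: male controls with male TCDD 1, the other exposed males with female controls 1 and 2, and female control 3 with the exposed females. With the slide as a block, and to the same value within slides, the median was 0.65 over both sexes, 0.87 in males and 0.38 in females. All within-slide values in males rest on male TCDD 1 and all in females on female control 3. With slide as a block 0 members passed, and 22 of 28 had an unadjusted p below 0.05 over both sexes, against 24.5% of all genes.

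The members of the first stage, from acetyl-CoA to farnesyl diphosphate, gave an even pattern. Hmgcs1 encodes the synthase that makes HMG-CoA in the cytosol. Its probe (chr2:51754514-51754573, rn4) read 2.55, 3.55 and 2.32 in male controls, 4.45, 3.85 and 2.29 in exposed males, 2.64, 3.89 and 2.33 in female controls, and 3.77, 2.13 and 3.63 in exposed females. The lowest reading of every group was at or below 2.33 and the highest at or above 3.55, so the groups overlapped throughout. The difference was 0.47 ± 0.46 (SE; limma adjusted p = 0.701) over both sexes, 0.72 in males and 0.22 in females. Across the Avil division the lowest of the 6 higher arrays stood at 3.55 and the highest of the 6 lower at 2.64, and the means differed by 1.48, or 2.79-fold.

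Fdps encodes farnesyl diphosphate synthase, at the branch from which sterols, dolichol and protein prenyl groups are made. It read 1.10, 1.82 and 1.10 in male controls, 2.87, 2.22 and 1.07 in exposed males, 1.11, 2.12 and 1.03 in female controls, and 1.87, 0.81 and 2.00 in exposed females at chr2:181170192-181170336 (rn4). One male control, 2 exposed males, 1 female control and 2 exposed females lay at 1.82 or above, and no other array was above 1.11. The exposure difference was 0.43 ± 0.34 (SE; limma adjusted p = 0.675), and the difference across the Avil division was 1.11.

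Idi1 encodes the isomerase that turns isopentenyl diphosphate into its reactive form. Its levels were 0.45, 1.25 and 0.33 in male controls, 2.07, 1.51 and 0.26 in exposed males, 0.66, 1.41 and 0.20 in female controls, and 1.14, 0.18 and 1.24 in exposed females (chr17:72557223-72557282, rn4). The same 6 arrays were the highest, and exposed and control samples overlapped in both sexes. The exposure difference was 0.35 ± 0.34 (SE; limma adjusted p = 0.705), against 1.09 across the Avil division. The other members of this stage followed: the exposure differences were 0.32 for Mvd, the mevalonate diphosphate decarboxylase, 0.25 for Pmvk, the phosphomevalonate kinase, and 0.25 for Mvk, the mevalonate kinase. Across the Avil division those 3 genes differed by 0.93, 0.60 and 0.50, in the same order. In all 6 measured genes of the stage the 6 arrays of higher Avil lay above the other 6 without overlap, as they did in 7.98% of all genes.

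**Figure D2:**
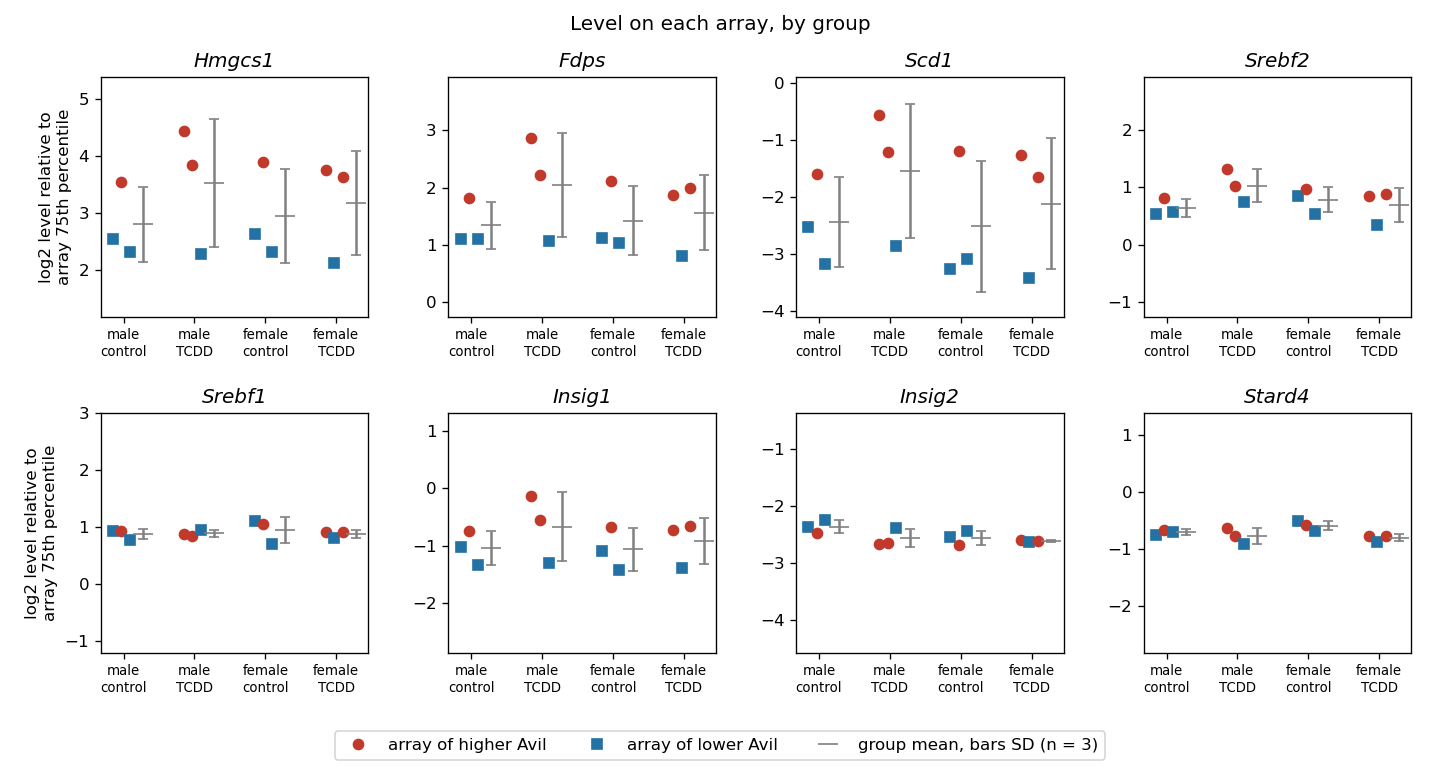
Log2 level of 8 members on each array relative to the array's 75th percentile, by group, with each group's mean and SD (n = 3); red circles are arrays of higher Avil and blue squares arrays of lower Avil. All panels span the same number of log2 units. For Hmgcs1, Fdps, Scd1, Insig1 and Srebf2 the red points lie above the blue ones in every group, though those of Srebf2 overlap between groups. For Srebf1, Insig2 and Stard4 the points stay within a narrow band.

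Promoter sequence was set beside these levels because the members are known to share transcription factors. RefSeq promoters of the GRCr8 build were given for 21 of the 28 members, from 250 bases before to 50 bases after the start of the transcript. On both strands CCAAT, the box bound by nuclear factor Y, a partner of the SREBPs, stood in 17 of 21, against 37.5% of all 33469 promoters. The sterol regulatory element in the form TCACNCCAC stood in 0 of 21, against 1.12% of all, and the E-box CACGTG in 3 of 21 (Insig1, Sc5d and Scap), against 6.42%. None of the 3 motifs contains another. CCAAT was present in 13 of 16 members whose arrays did not overlap across the Avil division and in 4 of 5 whose arrays did. The members without it were Cyp51, Dhcr7 and Scd1, whose arrays did not overlap, and Scap, whose arrays did. The next lines give 150 bases, from 160 to 11 bases before the start, in the direction of the gene, with CCAAT or its reverse ATTGG in capitals, for 4 members high on the arrays of higher Avil (Hmgcs1 at chr2:53382144-53382293, Fdps at chr2:176804827-176804976, Idi1 at chr17:66547535-66547684, Lss at chr20:12118241-12118390) and for 2 members that were not (Insig2 at chr13:35040109-35040258, and Scap at chr8:119184278-119184427, which has no such box).
Hmgcs1: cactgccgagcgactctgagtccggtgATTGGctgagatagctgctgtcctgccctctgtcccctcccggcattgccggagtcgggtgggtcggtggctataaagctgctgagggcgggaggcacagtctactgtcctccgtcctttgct
Fdps: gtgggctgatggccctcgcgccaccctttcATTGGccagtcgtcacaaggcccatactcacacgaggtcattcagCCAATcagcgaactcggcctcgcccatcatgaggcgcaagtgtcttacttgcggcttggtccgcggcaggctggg
Idi1: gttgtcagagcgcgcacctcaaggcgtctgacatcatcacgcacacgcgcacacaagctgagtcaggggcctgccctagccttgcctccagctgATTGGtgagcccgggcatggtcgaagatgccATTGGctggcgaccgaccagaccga
Lss: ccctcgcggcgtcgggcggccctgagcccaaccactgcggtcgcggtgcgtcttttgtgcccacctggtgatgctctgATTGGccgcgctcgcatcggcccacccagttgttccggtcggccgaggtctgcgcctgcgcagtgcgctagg
Insig2: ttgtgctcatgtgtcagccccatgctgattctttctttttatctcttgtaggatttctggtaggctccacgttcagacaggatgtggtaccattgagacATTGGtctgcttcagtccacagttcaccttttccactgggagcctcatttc
Scap: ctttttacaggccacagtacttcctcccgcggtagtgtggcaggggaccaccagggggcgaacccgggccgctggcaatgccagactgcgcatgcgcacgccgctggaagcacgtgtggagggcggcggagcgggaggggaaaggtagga
Hmgcs1 and Scap lie on the plus strand and the other 4 on the minus strand. Of the 37 boxes in the 21 members' promoters, counting both of the starts given for 1 gene, 29 were in the reverse form ATTGG. A match is a description of letters, and the absence of the element TCACNCCAC says only that these letters are not in this window.

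The squalene steps split. Sqle encodes squalene epoxidase, the first step of the pathway to need oxygen. Its levels were 1.69, 2.09 and 1.50 in male controls, 2.82, 2.23 and 1.51 in exposed males, 1.82, 2.24 and 1.44 in female controls, and 2.10, 1.28 and 2.17 in exposed females (chr7:96111693-96111752, rn4). The difference was 0.22 ± 0.25 (SE; limma adjusted p = 0.733), and the 6 arrays of higher Avil lay above the rest, with a difference of 0.73. Lss, the cyclase that closes the sterol rings, differed by 0.49 ± 0.31 (SE; limma adjusted p = 0.670) with exposure and by 0.97 across the Avil division. Fdft1, squalene synthase, behaved otherwise, with 1.10, 1.39 and 1.24 in male controls, 1.67, 1.50 and 1.28 in exposed males, 1.51, 1.58 and 1.19 in female controls, and 1.30, 1.46 and 1.41 in exposed females (chr15:42425389-42425448, rn4). Its highest readings were male TCDD 1 and female control 2, and female control 1 and female TCDD 2, both of lower Avil, lay among the upper 6. The exposure difference of Fdft1 was 0.10 ± 0.09 (SE; limma adjusted p = 0.692) and the difference across the Avil division 0.18.

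From lanosterol to cholesterol, 7 of 8 measured members were higher without overlap on the arrays of higher Avil, against 7.98% of all genes. Dhcr7, the reductase of the last step from 7-dehydrocholesterol, read -0.80, -0.21 and -0.82 in male controls, 0.52, 0.02 and -0.52 in exposed males, -0.40, -0.10 and -0.92 in female controls, and -0.08, -0.85 and -0.13 in exposed females (chr1:204258565-204258624, rn4). In males the exposure difference was 0.62 ± 0.32 (SE; limma adjusted p = 0.505) and in females 0.12, and the difference across the Avil division was 0.72. Exposure differences over both sexes were 0.36 for Nsdhl and 0.26 for Hsd17b7, which act with Msmo1 (0.12) in removing the methyl groups at carbon 4. They were 0.24 for Cyp51, the lanosterol demethylase, 0.18 for Tm7sf2, a sterol reductase, 0.23 for Sc5d, a desaturase, and 0.10 for Ebp, a sterol isomerase. Across the Avil division these 7 genes differed by 0.79, 0.64, 0.55, 0.66, 0.42, 0.49 and 0.16, in the order just given. Ebp was the member whose arrays overlapped there, and it was also the 1 of 28 members whose exposed males (0.69, 0.61 and 0.51) all lay above the male controls (0.37, 0.46 and 0.45), where 8.54% of all genes did the same. Its difference in males was 0.17 ± 0.09 (SE; limma adjusted p = 0.505).

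The enzymes of fatty acid synthesis, which SREBPs also switch on, held the member with the widest range. Scd1 encodes stearoyl-CoA desaturase, which makes oleic acid, and RefSeq now lists it as Scd. It read -2.53, -1.60 and -3.17 in male controls, -0.57, -1.22 and -2.86 in exposed males, -3.25, -1.19 and -3.09 in female controls, and -1.27, -3.43 and -1.66 in exposed females (chr1:249458860-249458919, rn4). Levels ran over 2.86 log2 units, with the 6 arrays of higher Avil at -1.66 or above and the others at -2.53 or below. The exposure difference was 0.64 ± 0.55 (SE; limma adjusted p = 0.684), the largest among the members, and the difference across the Avil division was 1.80, or 3.49-fold. Fasn, fatty acid synthase, read 1.14, 1.70 and 1.28 in male controls, 2.17, 1.80 and 1.43 in exposed males, 1.51, 2.04 and 0.86 in female controls, and 2.12, 0.98 and 1.53 in exposed females, and its probe has no position on rn4 in the files. The exposure difference was 0.25 ± 0.24 (SE; limma adjusted p = 0.704). Its arrays were separated across the Avil division by only 0.02, the step between female TCDD 3 and female control 1, with means 0.69 apart. Acaca, the acetyl-CoA carboxylase that starts fatty acid synthesis, read -4.32, -4.06 and -4.55 in male controls, -3.62, -3.89 and -4.23 in exposed males, -4.02, -3.79 and -4.65 in female controls, and -3.73, -4.14 and -3.85 in exposed females (chr10:72499952-72500011, rn4). Its exposure difference was 0.32 ± 0.18 (SE; limma adjusted p = 0.670), and across the Avil division the arrays overlapped, with means 0.50 apart. Acly, which supplies cytosolic acetyl-CoA, and Elovl6, which lengthens palmitate, differed by 0.23 and 0.38 with exposure and by 0.64 and 0.84 across the Avil division, without overlap in either gene.

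Of the 6 genes that control the pathway or carry its product, 5 had arrays that overlapped across the Avil division at the scaling used here. Srebf1 read 0.93, 0.94 and 0.78 in male controls, 0.87, 0.85 and 0.95 in exposed males, 1.10, 1.06 and 0.70 in female controls, and 0.91, 0.81 and 0.92 in exposed females (chr10:46462235-46462294, rn4). All 12 readings lay between 0.70 and 1.10, with differences of -0.03 ± 0.08 (SE; limma adjusted p = 0.874) for exposure and 0.05 across the Avil division. Srebf2, whose product drives mainly the sterol genes, read 0.53, 0.81 and 0.57 in male controls, 1.33, 1.02 and 0.74 in exposed males, 0.85, 0.97 and 0.54 in female controls, and 0.84, 0.35 and 0.88 in exposed females (chr7:120580150-120580209, rn4). Its difference was 0.39 ± 0.19 (SE; limma adjusted p = 0.505) in males and -0.10 in females; the difference between the sexes was not called (adjusted p = 0.880). Across the Avil division Srebf2 differed by 0.38, and female control 1 at 0.85 stood above male control 2 at 0.81, so the arrays overlapped. After median centring of each array, or quantile normalization, they did not overlap.

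The 2 Insig genes, whose products hold SREBP in the endoplasmic reticulum, lay on different sides of 0 in both differences. Insig1, itself an SREBP target, read -1.03, -0.75 and -1.35 in male controls, -0.13, -0.56 and -1.31 in exposed males, -1.09, -0.68 and -1.43 in female controls, and -0.74, -1.39 and -0.66 in exposed females (chr4:2578292-2578348, rn4). It was the 1 of 6 regulators and transport genes whose arrays did not overlap across the Avil division, by 0.68, and its exposure difference was 0.26 ± 0.22 (SE; limma adjusted p = 0.687). Insig2, which is known to be less dependent on SREBP, read -2.36, -2.47 and -2.25 in male controls, -2.66, -2.64 and -2.38 in exposed males, -2.55, -2.69 and -2.44 in female controls, and -2.60, -2.63 and -2.61 in exposed females (chr13:33333061-33333298, rn4). The mean was lower on the arrays of higher Avil, by -0.18, and in exposed samples, by -0.13 ± 0.08 (SE; limma adjusted p = 0.670). Scap, the escort protein of the SREBPs, differed by -0.05 with exposure and -0.03 across the Avil division.

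Stard4, a carrier of cholesterol within cells, was the member with the smallest unadjusted p over both sexes. It read -0.76, -0.66 and -0.69 in male controls, -0.63, -0.76 and -0.91 in exposed males, -0.51, -0.58 and -0.67 in female controls, and -0.76, -0.87 and -0.77 in exposed females (chr18:25638729-25638788, rn4). Every exposed female lay below every female control, which 5.48% of all genes also showed, while in males the groups overlapped. The difference was -0.21 ± 0.09 (SE; limma adjusted p = 0.9998) in females, with an unadjusted p of 0.039, and -0.14 ± 0.06 (SE; limma adjusted p = 0.670) over both sexes. Across the Avil division it differed by 0.04. A second, dimmer Stard4 probe read -2.17 on female control 3 and between -4.29 and -3.90 on the other 11 arrays, and its difference over both sexes was -0.37.

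The pattern across the Avil division held for 20 of 28 members without overlap, against 7.98% of all genes, and for 0 of 28 in the opposite direction, against 7.67%. Means were higher for 26 of 28 members, against 32.7% of all genes. The median difference was 0.64, where the median of all genes was -0.13 and the middle 50% of genes lay between -0.30 and 0.08. After median centring of each array the median of all genes was -0.10 and that of the members 0.66, and after quantile normalization -0.10 and 0.65. In both cases 23 of 28 members did not overlap, against 8.89% and 8.9% of all genes. Ebp, Srebf2 and Acaca then joined those without overlap, and Insig2 and Scap remained the 2 members with lower means. By role the count without overlap was 6 of 6 in the mevalonate steps, 2 of 3 in the squalene steps, 7 of 8 from lanosterol to cholesterol, 4 of 5 in fatty acid synthesis and 1 of 6 among regulators and transport. The medians for these roles were 1.01, 0.73, 0.60, 0.69 and 0.04.

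**Figure D3:**
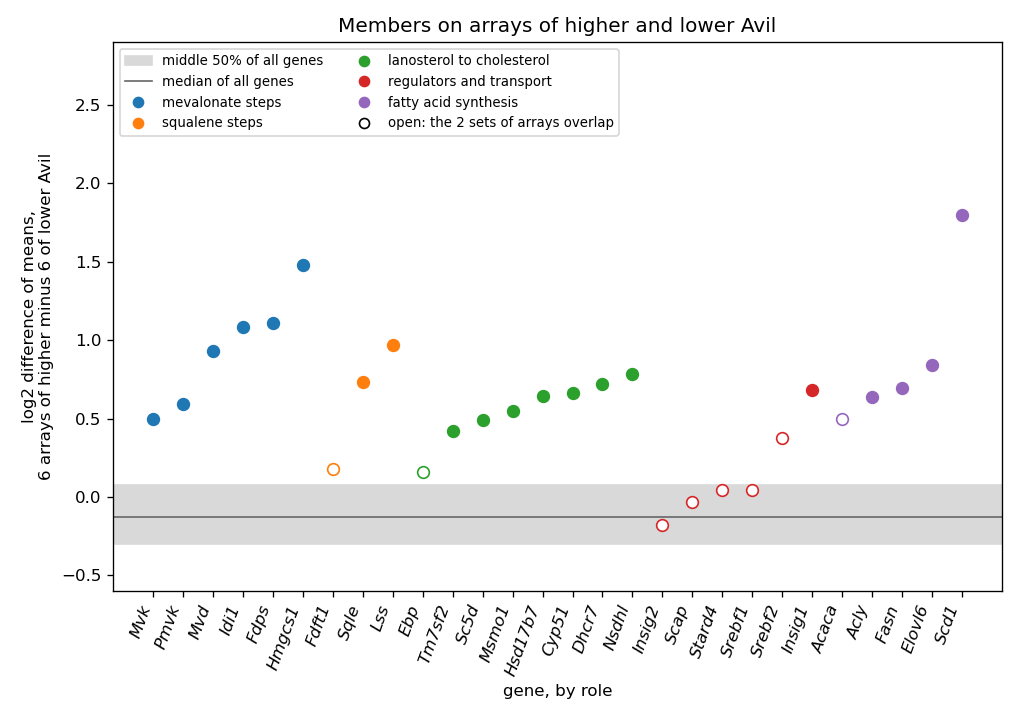
Log2 difference between the mean of the 6 arrays of higher Avil and that of the 6 of lower Avil for each member, by role; the grey band holds the middle 50% of all genes (-0.30 to 0.08) and the line their median (-0.13). Filled points are the 20 members whose arrays do not overlap; open points are the other 8, of which 4 (Insig2, Scap, Stard4 and Srebf1) lie within the band.

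Within each of the 3 slides, where 2 arrays of higher stand against 2 of lower Avil, 23 of 28 members were higher without overlap on every slide, against 11.4% of all genes. Among the 6 controls, 21 of 28 members did so (11.2% of all genes) with a median difference of 0.50. Among the 6 exposed samples 24 of 28 did (15.1% of all genes), with a median of 0.73. A gene separated over all arrays is separated in every part of them. The counts by slide and by exposure therefore include the 20 members separated over all arrays by construction. The array of male TCDD 1 had the highest Avil and the highest level of 24 of 28 members. Without it the median difference was 0.55. The count without overlap was 20 of 28, against 7.98% of all genes. That count could not fall, since leaving out an array cannot make separated sets overlap. Male TCDD 1 was the highest array for all 20 of those members, so their gaps stayed the same. The arrays of the 2 sets differed little in quality: the share of spots well above background was 75.1% to 77.9% on the arrays of higher Avil and 76.4% to 78.4% on the others.

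**Figure D4:**
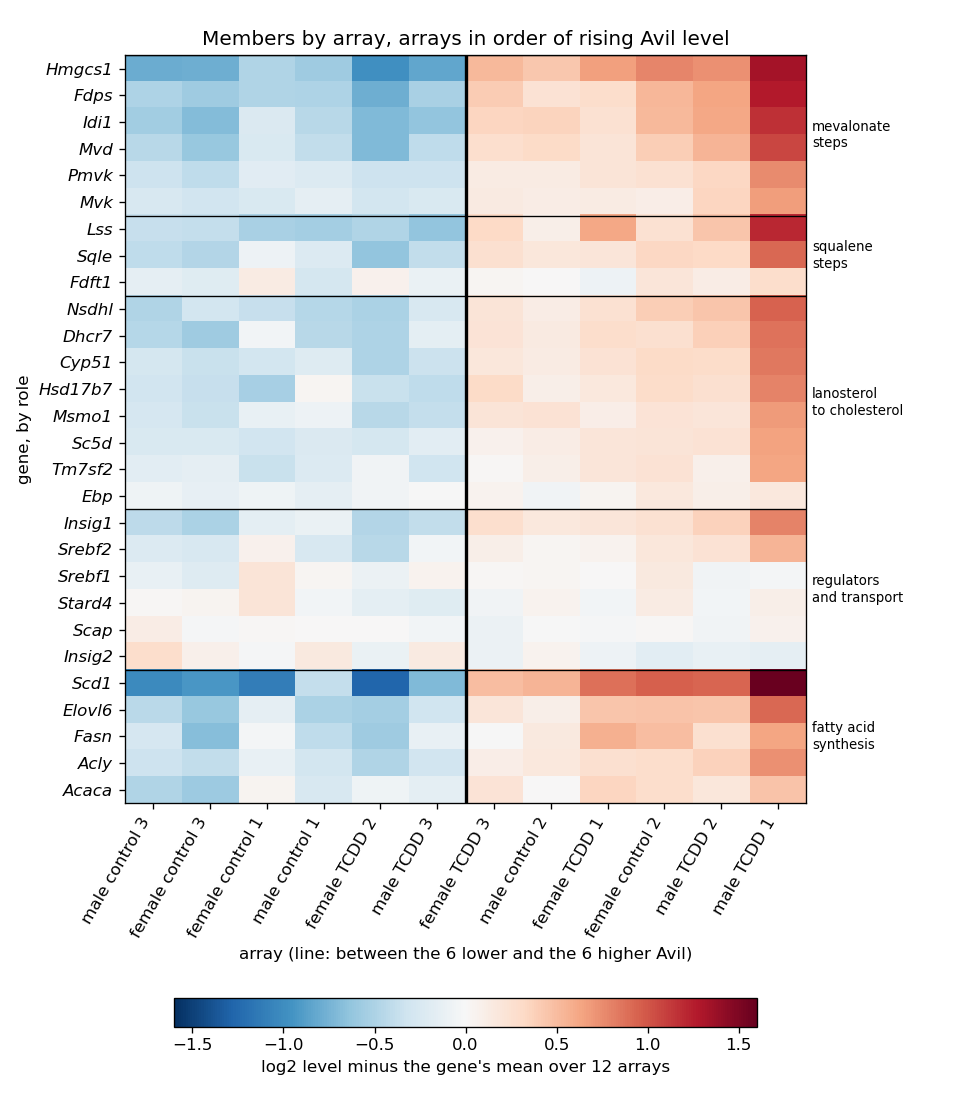
Log2 level of each member on each array minus the gene's mean over 12 arrays, with arrays in order of rising Avil level and genes by role. Most enzymes turn from blue to red at the line between the 6 arrays of lower and the 6 of higher Avil, with male TCDD 1 at the far right the highest for 24 of 28 genes, while Srebf1, Stard4, Scap and Insig2 stay pale.

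Markers of other cell types moved with the same 6 arrays. The list of sensory ganglion neuron genes holds Avil, which defines the division, and Pou4f1, a transcription factor of sensory neurons that was well above background on 6 of 12 arrays and on none of lower Avil, so both were left out of its counts. Of the other 16 genes, 15 were higher on the 6 arrays without overlap, against 7.98% of all genes, the exception being Runx3, and the median difference of the 16 was 4.13. Their summed level, in multiples of the array's 75th percentile, was 57.2 to 165 on the 6 arrays and 2.83 to 4.87 on the others; by exposure it was 2.83 to 87.3 in controls and 3.20 to 165 in exposed samples. Of 8 measured peripheral glia genes, 4 were higher without overlap, against the same 7.98% (Sox10 and Mbp among them; summed level 10.9 to 35.6 against 2.78 to 4.64). Of 15 measured pituitary genes, 13 were well above background on all 12 arrays, and 0 were higher and 0 lower without overlap (7.98% and 7.67% of all genes). All 15 means were lower, where 32.7% of all genes had a higher mean. The median of the 15 was -0.46, against -0.13 for all genes. Their summed level was 89.1 to 187 on the 6 arrays and 106 to 246 on the others. Counts higher without overlap were 0 of 6 for skeletal muscle, 0 of 3 for erythroid cells, 0 of 3 for fat and liver and 0 of 4 for endothelium, and counts lower without overlap were 0 in each of these lists. The summed level of fat and liver genes was 0.12 to 9.87 on the 6 arrays and 0.19 to 0.76 on the others, so the ranges overlapped. The part of these other cells in the levels of the sterol genes was not tested.

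Further lists of the pathway, 4 in all, were read the same way, and none held a gene called for exposure, where 0.0206% of all genes were. The proteases and partners that cut or hold SREBP gave 0 of 7 measured genes higher across the Avil division without overlap, against 7.98% of all genes, and 2 lower, against 7.67% (Mbtps1, the site-1 protease, by -0.33, and Faf2 by -0.17); the smallest unadjusted p for exposure in the list belonged to Mbtps1, at a difference of -0.20, and Erlin1, at -0.15. Of 10 measured further sterol and isoprenoid enzymes, 2 were higher without overlap (7.98% of all genes) and 0 lower (7.67%). One of them was Aacs, which makes acetoacetyl-CoA, by 1.16, and Lbr, a sterol reductase of the nuclear envelope, differed by 0.20 ± 0.14 (SE) with exposure. Of 12 measured further fatty acid genes, 4 were higher without overlap and 0 lower, where 7.98% and 7.67% of all genes were: the desaturase genes Fads1 (0.57), Fads2 (0.33) and Scd2 (0.43), and Acss2 (0.46), an acetyl-CoA synthetase. Their smallest unadjusted p for exposure belonged to Scd2 (0.23) and Mlxipl (-0.58). The 18 genes of sterol uptake, storage and efflux had a median of -0.28 across the Avil division, with 1 higher and 1 lower without overlap (7.98% and 7.67% of all genes). For exposure, Cyp46a1, the neuronal hydroxylase that clears cholesterol from the brain, well above background on 7 of 12 arrays, differed by 0.58 ± 0.22 (SE) and Nr1h3, the receptor LXR alpha, by -0.28 ± 0.12 (SE), neither of them called (adjusted p = 0.670 for both in limma).

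No member was called for a difference between the sexes. The difference between the female and the male exposure effect was called for 0 of 28 members, where 0.0% of all genes were, and 0 of 28 had an unadjusted p below 0.05, against 4.48% of all genes. The male difference was the higher for 26 of 28 members, with a median of -0.28 for the female minus the male effect against -0.05 for all genes; 2 of 28 had a value above 0 where 42.9% of all genes did, and 2 of the 3 exposed males as well as 2 of the 3 exposed females are arrays of higher Avil. Leaving out each array in turn, this median ran from -0.57 (without male TCDD 3) to -0.06 (without male TCDD 1, where 7 of 28 members were above 0). It was -0.08 without female control 2 and -0.09 without female TCDD 2, each with 6 of 28 above 0, so its size rests on single arrays. With the Avil division as a block this median stayed at -0.28 by construction. Male and female controls hold equally many arrays of higher Avil, as do exposed males and females, so the block cannot change it. In that fit 7 of 28 members had an unadjusted p below 0.05, against 13.7% of all genes. With the level of Avil as a covariate the median was -0.18, and 2 of 28 had such a p, against 11.2%. Both fits called 0 members. Between male and female controls 0 of 28 were called, where 0.0103% of all genes were, and 0 of 28 had an unadjusted p below 0.05, against 5.51% of all genes. The male minus female difference was above 0 for 7 of 28 members (42.2% of all genes) and ran from -0.19 to 0.20, with a median of -0.07. The side of 0 depended on single arrays: 24 of 28 were above 0 without female control 2 (median 0.15), 16 without male control 1 and 16 without male control 3, but 3 without male control 2 (median -0.24) and 3 without female control 3. With the slide as a block 1 of 28 was above 0, the median was -0.93, and 6 of 28 had an unadjusted p below 0.05, against 11.8% of all genes. No direction is read from these values, and 0 members were called in each of these fits.

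A second probe was present for 4 members. The second Fdps probe differed by 0.50 with exposure and 1.10 across the Avil division, and the second Elovl6 probe by 0.26 and 0.84, both without overlap in the latter. The second Insig2 probe gave -0.09 and -0.16, and that of Stard4 -0.37 and -0.22. The second Stard4 probe read 0.07 in males, where the brighter one read -0.06, and without female control 3 its difference over both sexes was -0.06. A probe that the files name Acat3, whose accession RefSeq now gives to Acat2, fell outside the rule by name; it differed by 0.36 with exposure and 0.61 across the Avil division, again without overlap. These probes run the way of the brighter ones for Fdps, Elovl6 and Insig2.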

How the data were processed

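Total RNA of 12 pituitary samples was amplified, labelled with Cy3 and hybridised to whole rat genome arrays, per the labels' protocols. The deposited scanner files hold the intensity of each spot on a linear scale, background-corrected by the authors' scanner software (Agilent Feature Extraction 10.7.1.1 per the file headers, 9.5.1.1 per the submitters' processing notes); probe positions are on rn4, per the file headers. No annotation of that build was used here, so exons and UTRs are not given. The authors' deposited value table holds intensity values whose columns all have a median of 83.5; it was used as an alternative, and its normalization is not given in the sources used here.

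Control and outlier-flagged spots were left out, log2 was taken, the array's 75th percentile was subtracted from each value and replicate spots were averaged by probe. A probe was kept if well above background on at least 3 arrays with at least 10 values (22431 of 30367 probes), and the brightest kept probe stood for its gene. Of all probes, 18006 were named through RefSeq by accession, 2654 by symbol and 9707 by the name in the file. Counts without overlap used the 19350 genes with a value on all 12 arrays. Array precision is limited by their number; the 75th percentile lay between 9.87 and 10.3 (log2), no spot was saturated, and replicate spots had a median coefficient of variation of 3.65% to 4.41%.

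Group means were fitted to all 12 arrays in limma 3.58.1 (R 4.3.3) with an intensity trend, and p-values were adjusted by Benjamini-Hochberg over all genes. The fit was tested on simulated data in which each gene varied independently. That test does not cover the variation that many genes share on these arrays. Values on every array were given for Avil, for the members of smallest p in each contrast or of widest gap across the Avil division, and for 6 regulators and committed steps; other members were given by their difference. Some genes of the further lists are not reported here. The members, lists and alternatives were chosen with earlier results of these data known. Alternatives covered scaling, background correction, filters, the variance model, slide, replicate number, Avil and each array left out.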

Additional observations from a re-analysis of the deposited data

Results flagged for a closer look

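In 56 sets of 6 arrays (each member in the 6 controls and in the 6 exposed samples, sexes together), 3 had 1 array far from the rest: its gap to the nearest array, as a share of the set's range, passed the critical value of 0.625. Chance gives about 1 in 20 such sets. Ebp was high on female control 2 among the controls (share 0.700), Scap was high on male control 3 among the controls (share 0.708), and Insig2 was high on male TCDD 3 among the exposed samples (share 0.765). None of the 3 is a member whose arrays were separated across the Avil division at the main scaling. That was largely set by the division itself. In separated members it leaves more than 1 array on each side of every set, so 1 far array is hardly flagged.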

How the results depend on the processing

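No member was called for exposure in any fit except in males with array quality weights, which called 15 of 28 members, 14 higher and 1 lower, where 28.2% of all genes were called; male TCDD 2 had a weight of 9.44 there. The median difference of the members in males, 0.39, became 0.87 with slide as a fixed block, 0.87 within slide 1 and -0.036 without the 6 arrays of higher Avil; the cause was not tested beyond the arrays these fits leave. Leaving out each array in turn, the median ran from 0.125 to 0.389 over both sexes, from 0.148 (without male TCDD 1) to 0.647 (without male TCDD 3) in males and from -0.057 to 0.306 in females, with 0 members called each time; without male TCDD 3, 17 of 28 members had an unadjusted p below 0.05 in males, against 27.6% of all genes. The replicate block left 0 members called, with medians of 0.248, 0.391 and 0.092, and over all genes called 2 instead of 4 over both sexes; deviations of same-numbered samples correlated at -0.22, 0.34 and 0.44 in males and -0.48, -0.70 and -0.37 in females, so the numbers were not taken to pair samples. The count across the Avil division without male TCDD 1, and the replicate block for the difference between the sexes, were added after the data were seen. Over 28 alternatives, 668 of 784 single-gene differences over both sexes stayed within 1 standard error of the value given and 116 moved further, none of them called. Part of the 668 was fixed in advance. The fit without an intensity trend, the replicate block and the changed filters on dim probes could not move a member's difference. The number of arrays, 3 per group with arrays of higher and lower Avil in each, limits what exposure differences could be detected.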
